A study of Mus musculus with 2 samples.

Results

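Transcripts of the matrix metalloproteinases (Mmp genes), their tissue inhibitors (Timp genes) and the ADAMTS proteases (Adamts genes) were examined in mouse embryonic fibroblasts (MEFs) of 2 genotypes, both kept without serum. Genes were taken by symbol, as Mmp, Timp or Adamts followed by a number and optionally a letter, without the Adamts-like (Adamtsl) genes. The GRCm38.p6 gene table holds 46 such genes, and 37 of them were read by a probe set that names no other gene, out of 18193 genes measured in all. These were 18 of 23 Mmp genes, 4 of 4 Timp genes and 15 of 19 Adamts genes. Mmp15, Mmp21, Mmp25, Mmp27, Mmp28, Adamts2, Adamts13, Adamts14 and Adamts17 had no such probe set and were not analysed here. A gene with several was represented by the brightest, by mean signal over both arrays.

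One culture carried the p27delta51 allele of Cdkn1b, the gene of the cyclin-dependent kinase inhibitor p27, and the control culture was wild type. The product of this allele is known to lack an amino-terminal part of p27 that is needed to inhibit these kinases. Cells of both genotypes were grown in 10% fetal bovine serum and then kept without serum for 72 h, so serum-fed cells were not measured. Each genotype was represented by 1 array, and the labels do not say whether its RNA came from 1 embryo or a pool. The comparison asks how the transcripts of quiescent p27delta51 cells differ from those of quiescent wild type cells. With 1 array per genotype no test was possible, no difference has a replicate check, and the allele and any other difference between the 2 cultures cannot be told apart.

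MMPs are zinc-dependent enzymes, made as inactive precursors, that cut collagens and other matrix proteins outside the cell or at its surface. TIMPs bind the active site of these enzymes and block it. TIMP3 differs from the others in that it is held in the matrix and also blocks several ADAM and ADAMTS enzymes. ADAMTS enzymes are secreted relatives of the ADAM proteases and act on proteoglycans such as aggrecan and versican, on procollagens and on microfibrils. Fibroblasts are a main source of many, but not all, of these proteins in connective tissue. In fibroblasts, Mmp3 and Mmp13 are known to respond to the AP-1 (Fos and Jun) transcription factors.

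The promoters of the Mmp cluster on chromosome 9 are shown first, because it holds both genes that were at least 2-fold higher in p27delta51 among those whose mean signal over both arrays reached 22.2, the median over the probe sets. The 120 bases before the start site are given 5′ to 3′ from RefSeq (GRCm38.p6), with matches to the AP-1 letters TGANTCA in capitals. Mmp13 and Mmp3 are those genes, Mmp10 and Mmp1a are neighbours in the same cluster, and Timp3 lies on chromosome 10 and was far lower.
Mmp13, chr9:7272394-7272513, + strand: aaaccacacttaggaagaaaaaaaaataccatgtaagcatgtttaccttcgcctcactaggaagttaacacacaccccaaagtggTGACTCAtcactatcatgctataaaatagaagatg
Mmp3, chr9:7445702-7445821, + strand: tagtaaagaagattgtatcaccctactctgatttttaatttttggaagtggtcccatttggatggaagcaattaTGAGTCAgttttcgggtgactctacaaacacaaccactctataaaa
Mmp10, chr9:7502222-7502341, + strand: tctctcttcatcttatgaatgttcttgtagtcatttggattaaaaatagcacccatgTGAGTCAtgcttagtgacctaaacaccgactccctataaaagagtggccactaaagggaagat
Mmp1a, chr9:7464021-7464140, + strand: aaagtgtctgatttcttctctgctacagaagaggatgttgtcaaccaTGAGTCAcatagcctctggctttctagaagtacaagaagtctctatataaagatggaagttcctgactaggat
Timp3, chr10:86300292-86300411, + strand: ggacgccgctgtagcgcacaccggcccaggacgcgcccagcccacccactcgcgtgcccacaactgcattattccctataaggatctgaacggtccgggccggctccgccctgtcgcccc
The letters, which read the same on both strands, started at -35 in Mmp13, -46 in Mmp3, -63 in Mmp10 and -73 in Mmp1a, where -1 is the base before the start site. Promoters of 32 of the 46 genes were in the RefSeq table, each covering 250 bases before and 50 after a start site. A match was found in 8 of 10 genes of the chromosome 9 cluster and in 0 of 22 genes elsewhere. Counted by promoter, 8 of 35 for the 32 genes (22.9%) held a match, against 7.81% of all 32851 in the table. The 8 genes were Mmp1a, Mmp1b, Mmp3, Mmp7, Mmp10, Mmp12, Mmp13 and Mmp20, and 4 of them (Mmp1a, Mmp1b, Mmp12 and Mmp20) gave no signal above background on either array. A match of letters is a description and not evidence of binding.

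The array signals are linear intensities scaled to the same trimmed mean on both arrays. Background was taken as the brightest of 27 control probe sets for bacterial transcripts, which put this control floor at 14.8 (p27delta51) and 11.8 (wild type). A fold whose lower signal did not exceed its array's floor uses the floor instead and is written "at least". Median signals over 45101 probe sets were 22.2 and 21.2. For Cdkn1b, 1 probe set gave 1016 against 542 and another 1.6 against 62.0 (p27delta51 against wild type). Which of them reads the deleted stretch is unknown here, so neither checks the genotype. The cultures also differed in sex-linked transcripts, with Xist at 876 against 25.8 and the Y-linked Eif2s3y at 6.9 against 424. The fibroblast markers fixed for this comparison were above the floor on both arrays, 8 of 8, although Thy1 was at 18.6 in p27delta51 against 279 in wild type.

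Of the 37 genes, 21 were above the floor on both arrays, 1 (Mmp13) on the p27delta51 array alone and 7 on the wild type array alone. Over all 18193 genes, 11496 were above the floor on both arrays. The share of all genes above it on 1 array alone is not given here, so 7 against 1 has no baseline. Those above it in wild type alone were Mmp7, Mmp9, Mmp23, Timp4, Adamts15, Adamts18 and Adamts20. The remaining 8 of the 37, Mmp1a, Mmp1b, Mmp8, Mmp12, Mmp20, Adamts3, Adamts8 and Adamts19, were at or below the floor on both arrays. Their signals ran from 1.0 to 11.0 in p27delta51 and from 0.4 to 11.8 in wild type. No fold is given for them. In bulk RNA, fewer cells that make a transcript and less of it per cell cannot be told apart.

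**Figure D1:**
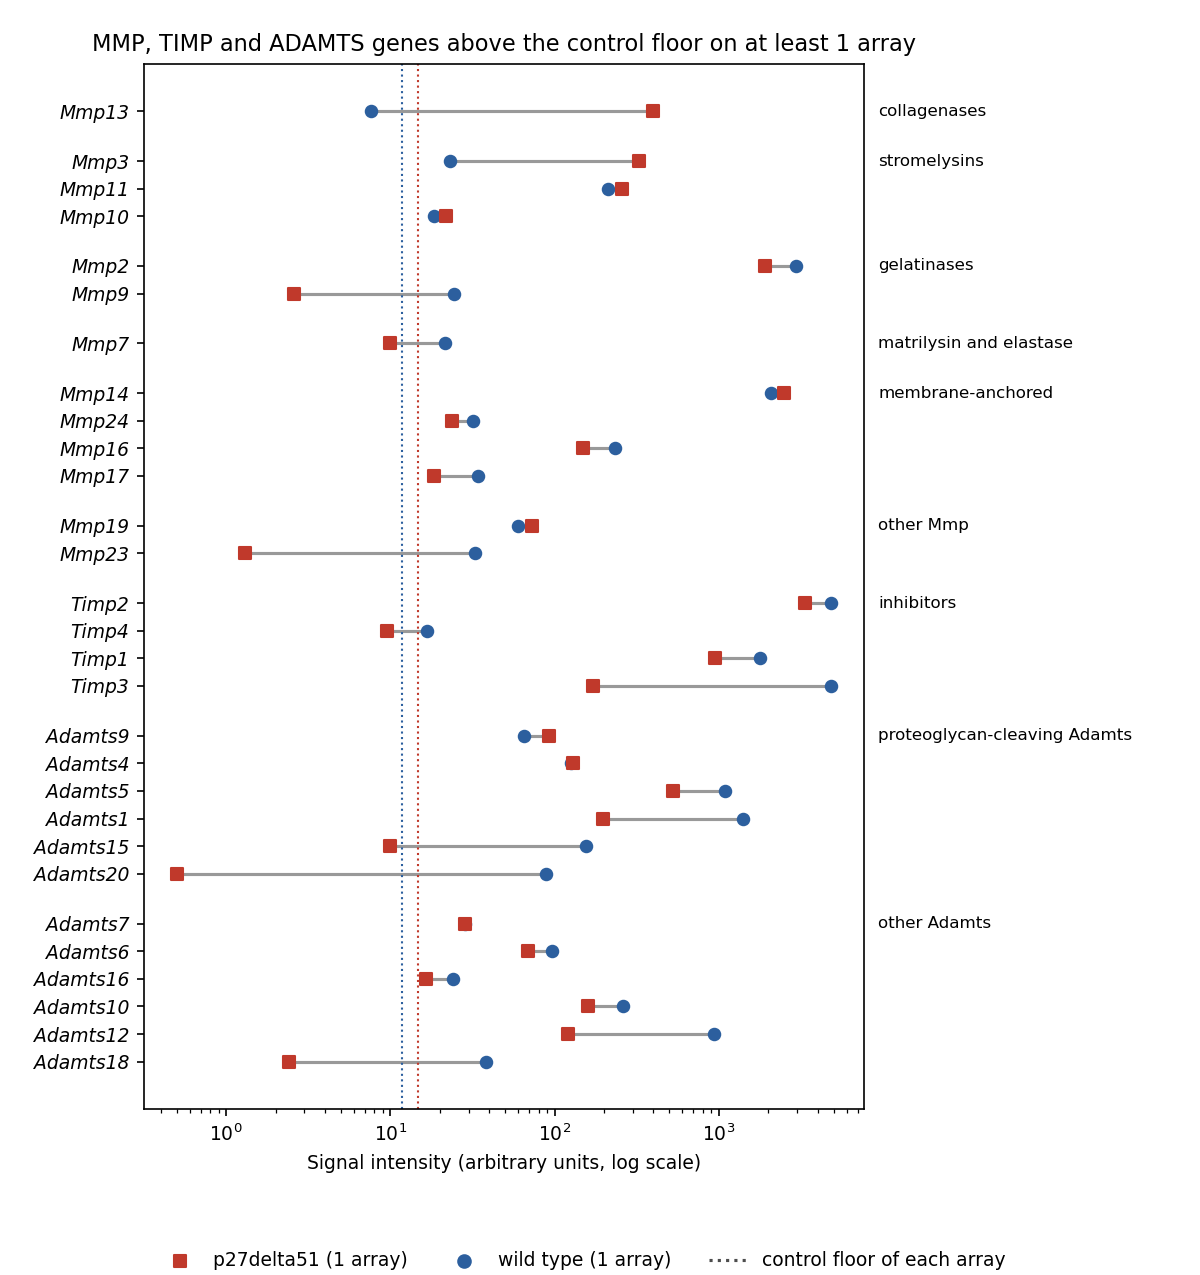
Signal intensity (log scale) on the p27delta51 array (red squares) and the wild type array (blue circles) for the 29 MMP, TIMP and ADAMTS genes above the control floor on at least 1 array, grouped by role, with dotted lines at the floors of 14.8 and 11.8. Mmp13 and Mmp3 lie far to the right in p27delta51, whereas Timp3 and several Adamts genes lie far to the left. Signals of different genes come from different probes and are not levels that can be set against each other.

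The collagenase gene Mmp13 and the stromelysin gene Mmp3 were higher in p27delta51, and every other Mmp gene that passed the brightness filter was less than 2-fold apart. The filter is the mean signal of 22.2 given above. Mmp13 encodes the main interstitial collagenase of the mouse. Its signal was 395.5 in p27delta51 against 7.6 in wild type, a difference of at least 33.5-fold. The wild type value was below the floor, so Mmp13 transcript was detected on the p27delta51 array alone. Mmp3, whose product cuts many matrix proteins and activates other MMP precursors, gave 327.3 in p27delta51 against 23.2 in wild type, 14.1-fold higher. The wild type signal of Mmp3 was within 2-fold of the floor, so this fold is approximate. Among 11496 genes above the floor on both arrays, 30 had a larger positive log2 difference than Mmp3. Mmp13 and Mmp3 had log2 ratios of 5.7 and 3.6 in the authors' deposited table, each with an increase call.

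Mmp11, the third stromelysin by name, gave 257.2 in p27delta51 against 212.8 in wild type. Its log2 difference of 0.27 was close to the median spread between probe sets of a gene, an SD of 0.23 on the log2 scale over 5316 genes. That spread is between probe sets read on the same arrays, and it does not measure how cultures of a genotype vary. Mmp10, a close relative of Mmp3, was near background at 21.7 and 18.5.

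The cluster on chromosome 9 holds 10 Mmp genes with no other protein-coding gene between them, in the order Mmp13, Mmp12, Mmp1b, Mmp3, Mmp1a, Mmp10, Mmp8, Mmp27, Mmp20 and Mmp7. Mmp13 and Mmp3 are not neighbours in it. Mmp12, the macrophage elastase gene, and Mmp1b lie between them, with p27delta51 signals of 1.0 and 7.7, below the floor. Mmp1a, on the other side of Mmp3, was also at 7.7. Of the 9 cluster genes with a probe set, 3 were above the floor in p27delta51 (Mmp13, Mmp3 and Mmp10) and 3 in wild type (Mmp3, Mmp10 and Mmp7). Mmp7, the matrilysin gene at the far end, gave 10.0 in p27delta51 against 21.5 in wild type, at least 1.45-fold lower, although the authors' deposited table lists a log2 ratio of 0.4 with a no-change call. On chromosome 9 as a whole, 76 of 619 genes that passed the filter (12.3%) were at least 2-fold higher, and 37 (5.98%) were lower by as much. Over all chromosomes these shares were 10.8% and 8.77%.

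**Figure D2:**
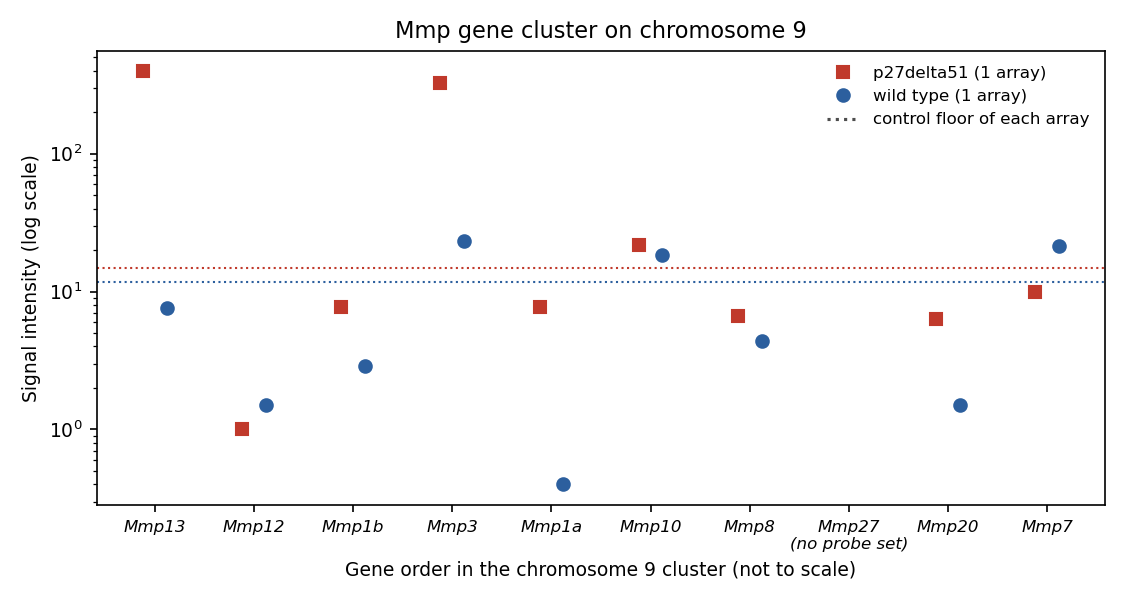
Signal intensity (log scale) of the Mmp genes on chromosome 9 in chromosome order, for the p27delta51 array (red squares) and the wild type array (blue circles), with dotted lines at the control floors. Mmp13 (395.5 against 7.6) and Mmp3 (327.3 against 23.2) stand far above the floor in p27delta51, while the genes between and beside them lie at or near it.

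Gelatinase transcripts were lower or near background in p27delta51. Mmp2, the gene of the gelatinase that cuts basement membrane collagen and denatured collagen, gave 1915 in p27delta51 against 2947 in wild type, 1.54-fold lower. Both of its probe sets gave a log2 difference of -0.62. Mmp9, the other gelatinase gene, known from neutrophils and macrophages, gave 2.6 against 24.4, at least 1.65-fold lower, with a no-change call in the authors' deposited table. Neutrophil markers were near background, with 1 of 7 above the floor in p27delta51 and 3 of 7 in wild type and summed signals of 78.3 and 74.3. Macrophage markers were above the floor in 5 of 7 on both arrays, with summed signals of 208 and 168. Of these, Cd14 gave 86.9 against 32.2, which is more than the whole difference between the sums, and Ptprc, the common leukocyte gene, was below the floor on both.

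Mmp14, Mmp16, Mmp17 and Mmp24, the membrane-type Mmp genes with a probe set, differed by less than 2-fold in either direction. Mmp14, whose product activates the MMP2 precursor at the cell surface with TIMP2 as a bridge, gave 2501 in p27delta51 against 2071 in wild type. Its 3 probe sets gave log2 differences between 0.27 and 0.46, with a mean of 0.39 ± 0.10 (SD, n = 3 probe sets). Mmp16, another membrane-anchored activator of MMP2, gave 148.6 in p27delta51 against 234.8 in wild type. All 4 of its probe sets were lower in p27delta51, with a mean log2 difference of -0.82 ± 0.18 (SD, n = 4 probe sets). Thus within this activation system Mmp14 was slightly higher, and Mmp16, Mmp2 and, in its brightest probe set, Timp2 were lower. Mmp17, held to the membrane by a lipid anchor, gave 18.5 against 34.2, close to background. The 2 bright probe sets of Mmp24 went opposite ways, with log2 differences of -0.43 and 0.32.

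Mmp19 gave 72.7 in p27delta51 against 60.3 in wild type, a log2 difference of 0.27. Its other probe set was nearly level at 31.5 and 32.2, a log2 difference of -0.032. Mmp23, an unusual member that stays in the membrane as a precursor, gave 1.3 in p27delta51 against 33.0 in wild type, at least 2.23-fold lower. Its other probe set gave 7.0 and 27.3, at least 1.84-fold lower. The probe sets tied at a mean signal of 17.15, and the one used was taken by order of name. Both probe sets carried a decrease call in the authors' deposited table, with log2 ratios of -4.3 and -2.2.

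All 4 Timp genes gave a lower signal in p27delta51 in the probe set used, by very unequal amounts. Timp3 gave 172.6 in p27delta51 against 4804 in wild type, 27.8-fold lower. Its other probe sets gave 94.1 against 3688, 21.2 against 1942 and 35.1 against 1584. All 8 signals of Timp3 were above the floor, and the mean log2 difference was -5.53 ± 0.72 (SD, n = 4 probe sets). Of the 11496 genes above the floor on both arrays, 20 had a more negative log2 difference than the Timp3 probe set used. In the authors' deposited table the 4 probe sets of Timp3 had log2 ratios from -4.8 to -6.5, each with a decrease call.

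Timp1, an X-linked gene whose product is induced by growth factors and inflammation, gave 950.6 in p27delta51 against 1784 in wild type, 1.88-fold lower. Xist, which marks an inactive X chromosome, differed between the arrays as given above, and its part in the Timp1 value was not tested. Timp2 gave 3360 in p27delta51 against 4845 in wild type in its brightest probe set, 1.44-fold lower. Over its 5 bright probe sets the log2 difference ranged from -0.53 to -0.010, with a mean of -0.28 ± 0.25 (SD, n = 5 probe sets). The Timp2 difference was thus about as large as the spread between its own probe sets. Timp4 was near background, at 9.6 in p27delta51 against 16.7 in wild type, at least 1.13-fold lower. The other Timp4 probe set was at 13 and 6.0, below the floor on both arrays.

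**Figure D3:**
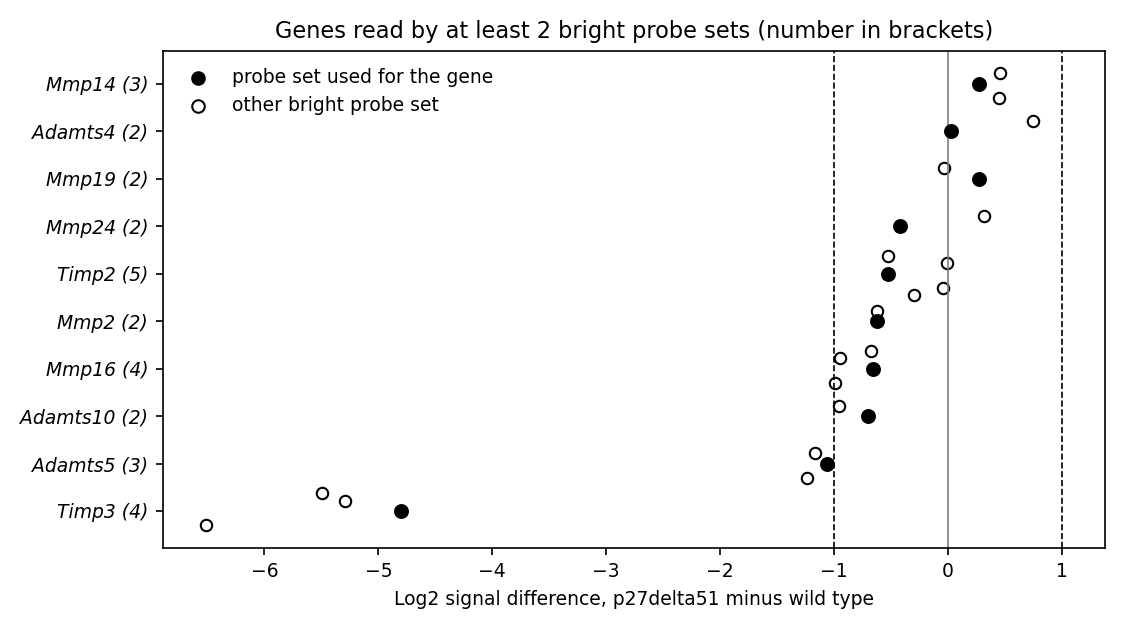
Log2 signal difference (p27delta51 minus wild type) of each bright probe set of the 10 genes read by at least 2 of them, with the probe set used filled, the others open and shifted up or down for visibility, and dashed lines at 2-fold. The 4 Timp3 probe sets lie between -6.52 and -4.80 and the 3 of Adamts5 between -1.24 and -1.06, whereas those of Mmp19 and Mmp24 fall on both sides of 0.

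Of 7 Adamts genes with a probe set whose products are known to cut aggrecan or versican, 6 passed the brightness filter, and 4 of these were at least 2-fold lower in p27delta51. Of all genes that passed, 8.77% were lower by as much. Adamts15 and Adamts20, among the 4, passed through the wild type array alone. Adamts1, the gene of a versican- and aggrecan-cutting enzyme, gave 196.7 in p27delta51 against 1401 in wild type, 7.12-fold lower. Adamts5, the main aggrecanase of mouse cartilage, gave 526.5 in p27delta51 against 1099 in wild type, 2.09-fold lower. Its 3 bright probe sets agree in sign, with a mean log2 difference of -1.16 ± 0.090 (SD, n = 3 probe sets). A dim probe set of Adamts5 gave 8.1 against 0.7, below the floor on both arrays. Adamts1 and Adamts5 are direct neighbours on chromosome 16, with no protein-coding gene between them. Of 365 genes on that chromosome that passed the filter, 40 (11.0%) were at least 2-fold lower.

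Adamts15 gave 10.0 in p27delta51 against 154.7 in wild type, at least 10.5-fold lower. Its product is known to cut versican and aggrecan. Its direct neighbour on chromosome 9, Adamts8, was at 4.5 and 6.0, below the floor on both arrays. Adamts20, whose product cuts versican and is known from pigment cell spread in mouse skin, gave 0.5 against 88.2, at least 5.96-fold lower. These transcripts were thus detected on the wild type array alone.

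Adamts4 and Adamts9 did not share this direction. Adamts4, an aggrecanase gene, gave 129.1 in p27delta51 against 126.4 in wild type, and 55.1 against 32.8, 1.68-fold higher, in its other bright probe set. Adamts9, the closest relative of Adamts20, gave 93.1 against 65.1, 1.43-fold higher, and the authors' deposited table lists a log2 ratio of 1.1 with an increase call.

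Of the remaining Adamts genes, Adamts12 was lower in p27delta51. It gave 120.3 in p27delta51 against 939.8 in wild type, 7.81-fold lower. ADAMTS12 and ADAMTS7 are both known to cut cartilage oligomeric matrix protein. Adamts7 gave 28.3 and 28.4, above the floor but dim. Adamts18 gave 2.4 against 38.3, at least 2.59-fold lower. Adamts10 and Adamts6, a related pair whose products act on fibrillin microfibrils and cell adhesion, gave 159.4 against 259.8 and 69.3 against 97.0. The log2 differences were -0.70 and -0.49. The other probe set of Adamts10 gave 32.4 against 62.8, the same direction, whereas that of Adamts6, dim at 18.7 against 13.1, gave the opposite one. Adamts16 was near background at 16.6 and 24. Adamts3, the one procollagen N-proteinase gene with a probe set, was at 11.0 and 11.8, at or below the floor.

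Most chondrocyte markers were lower in p27delta51 as well. Of 8 listed, 4 were above the floor in p27delta51 against 6 in wild type, with summed signals of 163 and 4480. Most of the wild type sum came from Cnmd, at 0.8 in p27delta51 against 2668 in wild type. Col11a2 differed little, at 28.4 against 35.9. Matn1 and Hapln1, below the floor on both arrays, went the other way, at 7.6 against 1.3 and 10.7 against 0.5. Acan, the gene of the ADAMTS5 substrate aggrecan, gave 46.5 in p27delta51 against 613.3 in wild type, and Sox9, the cartilage regulator, gave 33.6 against 314.3. Osteoblast markers were unequal, with summed signals of 382 and 79.5 over 5 genes. Dmp1 gave 207.1 against a listed 0 and Phex 123.1 against 8.5. Sp7, the defining osteoblast regulator, was at 32.3 and 32.6, Ibsp at 12.4 and 13.2, and Alpl at 6.8 and 25.2, so the larger sum in p27delta51 rests on Dmp1 and Phex. Mmp13 is known from osteoblasts and late cartilage cells besides fibroblasts. Epithelial markers had summed signals of 139 and 281, and endothelial markers 40.2 and 64.5, with 3 of 7 and 1 of 6 above the floor in p27delta51. Krt19, at 13.7 in p27delta51 against 176.9 in wild type, differed by more than the epithelial sums. Epcam went the other way, at 60.7 against 26.4. Most of the endothelial difference came from Tek, at 7.9 against 28.2. The part of cells of these types in the Adamts, Timp3 and Mmp13 values was not tested.

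Counted over the genes that passed the brightness filter, 2 of 22 (9.09%) were at least 2-fold higher in p27delta51, against 10.8% of all 11159 genes. At least 2-fold lower were 6 of 22 (27.3%), against 8.77% of all genes. The 6 were Timp3, Adamts1, Adamts5, Adamts12, Adamts15 and Adamts20. By family, 2 of 9 Mmp genes were at least 2-fold higher and 0 lower, 0 of 3 Timp genes higher and 1 lower, and 0 of 10 Adamts genes higher and 5 lower. The median log2 difference of the 22 genes was -0.58, also with signals raised to the floor, against 0.079 over all genes. It was 0.27 for the Mmp, -0.91 for the Timp and -0.88 for the Adamts genes. Of the 22, Mmp13, Mmp17, Adamts15 and Adamts20 passed through the brighter array alone, so these counts hold genes that had to differ and are descriptions of 2 arrays.

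Without the filter, 10 of 37 genes were at least 2-fold lower, against 14.2% of all 18193 genes, and 6 of 37 higher, against 15.4%. Of the 10, Mmp7 and Mmp9 were less than 2-fold lower once the floor stood in for the p27delta51 signal. So was Mmp23 in its other, equally bright probe set. Of the 6, Mmp1a, Mmp1b, Mmp20 and Adamts19 were below the floor on both arrays. Among genes above the floor on both arrays, 4 of 21 (19.0%) were at least 2-fold lower against 6.36% of all such genes, and 1 of 21 (4.76%) higher against 9.44%. In the authors' deposited table all 8 genes at least 2-fold apart carried a change call in the same direction, and so did 8 of the other 14, marginal calls included.

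**Figure D4:**
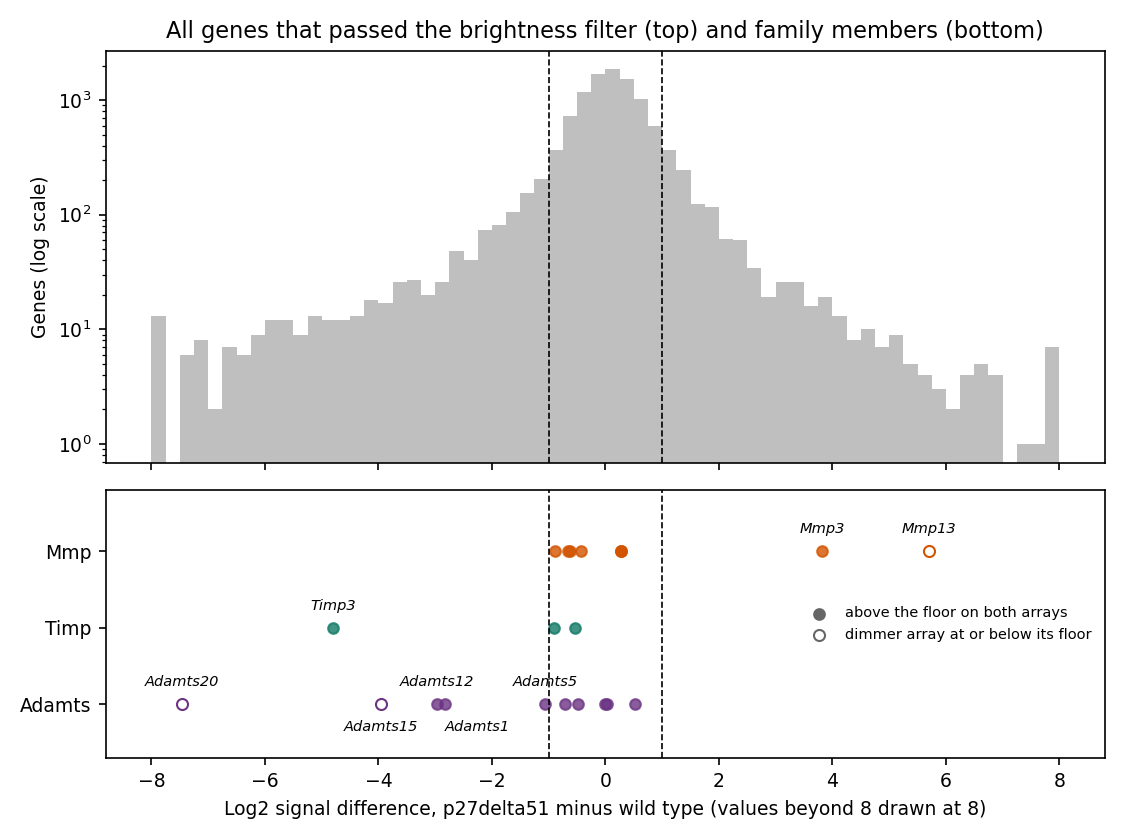
Top, number of genes (log scale) by log2 signal difference, p27delta51 minus wild type, for all 11159 genes that passed the brightness filter, with dashed lines at 2-fold. Bottom, the 22 Mmp, Timp and Adamts genes among them, open where the lower signal was within background, which leaves the position on the axis a signal ratio and not a measured fold. Mmp13 and Mmp3 lie on the right and Timp3 and 5 Adamts genes on the left.

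Genes that regulate or activate these proteases differed in both directions. Of 8 such genes that passed the filter, 3 were at least 2-fold lower and 1 was higher, with a median log2 difference of -0.40. Over all genes that passed, 8.77% were lower and 10.8% higher by as much. Reck, a membrane-anchored inhibitor of MMPs, gave 199.6 in p27delta51 against 426.8 in wild type, 2.14-fold lower. Pcsk6 and Pcsk5, convertases that process secreted precursors, were lower by a factor of 3.05 and of at least 3.07. Pcsk5, at 2.7 against 45.5, passed through the wild type array alone and so had to differ. Furin, the convertase that activates MMP14 and MMP11, gave 361.0 and 343.5. Lrp1, a receptor that clears MMPs and TIMP3 from the cell surroundings, gave 1665 against 749.0, 2.22-fold higher.

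In the plasmin system, which activates MMP precursors, 1 of 3 genes that passed was at least 2-fold lower and 0 higher, with a median of -0.34. Plaur, the urokinase receptor gene, gave 120.8 in p27delta51 against 523.6 in wild type. Plau, the urokinase gene, was near background at 15.8 and 12.3. Of 7 Adam genes that passed, Adam8 was 3.88-fold higher and Adam19 was 2.14-fold lower, and Adam17, whose product is blocked by TIMP3, gave 304.4 and 332.4. Adam8, at 78.7 against 20.3, passed through the p27delta51 array alone. The median of these Adam genes was -0.54. Of 3 Adamts-like genes that passed, Adamtsl3 was 2.10-fold higher and Adamtsl4, which acts in fibrillin microfibrils, was 5.58-fold lower, with a median of -0.21. For these short lists too, the shares over all genes that passed were 8.77% at least 2-fold lower and 10.8% higher.

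Substrate genes were also unequal. Of 16 that passed, 6 were at least 2-fold lower (Acan, Col2a1, Dcn, Eln, Nid1 and Tnc) and 2 were at least 2-fold higher (Col4a1 and Col4a2), with a median of -0.18. Over all genes that passed, 8.77% were lower and 10.8% higher by as much. Fibrillar collagen genes, whose products MMP13 cuts, were unequal among themselves. Col2a1, the cartilage collagen gene, gave 22.1 in p27delta51 against 825.7 in wild type, 37.4-fold lower. Col1a1 gave 7275 in p27delta51 against 7569 in wild type, and Col3a1 gave 9185 and 5007. Vcan, the versican gene and the substrate of ADAMTS1, ADAMTS9 and ADAMTS20, gave 1047 and 1194.

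Of 13 known regulators of Mmp transcription that passed, 5 were higher in p27delta51 by at least 2-fold and 3 were lower by as much, with a median of 0.12. The shares over all genes that passed were 10.8% higher and 8.77% lower. Etv4 and Il6, counted here, were above the floor on their brighter array alone. Jun gave 1216 against 135.8 and Fosl1, another AP-1 subunit gene, 135.1 against 27.6. Fos and Fosl2 went the other way, at 153.0 against 668.6 and 349.0 against 735.5, and Jund gave 1405 and 1408. The ETS-family genes Etv4 and Etv5 gave 128.9 against 2.5 and 667.7 against 80.9, at least 10.9 and 8.25 times as high. Ets1 gave 227.6 and 209.5. Il1b, an inducer of Mmp3 and Mmp13, gave 31.0 and 34.1, and Il6 gave 0.4 against 50.0, at least 3.38-fold lower. Tgfb1 was 2.46-fold higher. The AP-1 genes thus differed among themselves, and what these values mean for the promoters printed above was not tested.

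**Figure D5:**
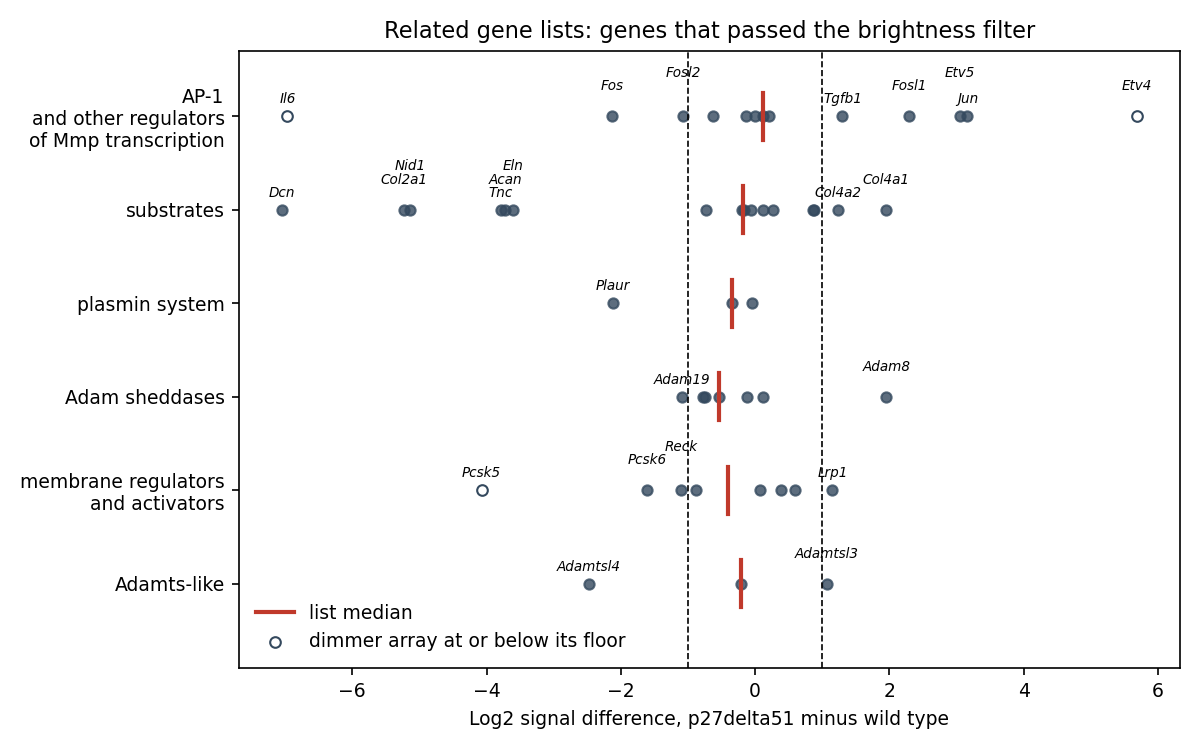
Log2 signal difference (p27delta51 minus wild type) of the genes of 6 related lists that passed the brightness filter, with list medians as red bars, dashed lines at 2-fold, and open points where the lower signal was within background. Regulators of Mmp transcription spread from Il6 on the left to Etv4 on the right, and 6 substrate genes lie beyond 2-fold on the left.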

How the data were processed

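The authors deposited 1 signal intensity per array for 45101 probe sets, with RMA and affy named per the submitters' processing notes. The intensity values are linear with a common trimmed mean of 150.0, unlike RMA output, and no source used here names the program behind them. The other deposited table holds, per the file headers, a log2 ratio, change call and change p-value from the authors' comparison of the 2 arrays, and its p-values were not used. Its log2 ratios correlated with those computed here at a Pearson r of 0.943 over all probe sets, a description since probe sets are not replicates.

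Gene names come from the platform annotation, with symbols updated to GRCm38.p6 (34945 with 1 gene, 932 with several, 9160 without a name, 64 controls). Genes at or above the median mean signal (22.2) were kept, which left 11159. Log2 differences are p27delta51 minus wild type, with 0.1 standing in for a signal of 0. No test was run, since each group holds 1 array, and the number of arrays limits the precision. The steps were tested on simulated data. All sample columns were used. Every gene above the floor on at least 1 array is named with its signals. Of the related lists, genes at least 2-fold apart could be named, and up to 4 others. The genes and lists were chosen with earlier results of these data known. Alternatives covered the filter, normalization, choice of probe set, dim signals, a pseudocount of 32, the authors' ratios and fold thresholds. Python 3.11.15, pandas 2.3.3, numpy 2.4.6, scipy 1.17.1 and statsmodels 0.14.6 were used.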

Additional observations from a re-analysis of the deposited data

Results flagged for a closer look

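One signal lies outside the comparison, in a probe set that was not used for its gene. A dim probe set of Adamts9 gave 19.0 in p27delta51, above the floor, against 1.8 for wild type, at least 1.61-fold higher. It was picked out because its signal was above background in p27delta51 and not in the control. A further dim probe set of Adamts9 gave 8.1 against 21.3, the opposite direction.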

How the results depend on the processing

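Between the settings, the counts of genes at least 2-fold apart and the median were compared with 2 higher, 6 lower and -0.58. Without the filter there were 6 of 37 higher and 10 lower, against 2805 and 2581 of all 18193 genes. With only genes above the floor on both arrays, a setting chosen after seeing the data, 1 of 21 was higher. Over all 11496 such genes 1085 were, and Mmp13 leaves the set. A 1.5-fold threshold gave 11 of 22 lower, against 1773 of all 11159 genes, and 2 of 22 higher, against 2421. With all probe sets of a gene averaged, the median was -0.11, and Adamts5 turned to 0.016, because its dim probe set below the floor enters the mean. The authors' log2 ratio of Mmp7 was 0.4. The upper-quartile filter left 4 of 13 lower, against 461 of all 6875 genes. Genes above the floor on both arrays left 4 of 21, against 731 of 11496. The authors' log2 ratio made 3 of 22 higher, against 1182 of 11159. Each of these counts changed by 1.5 times, and for the lower ones the set was also smaller. The remaining counts moved by less than that, and the remaining medians by less than 0.23 on the log2 scale. Of 12 genes with signals at least 2-fold apart among the 29 named, 10 kept their sign under every setting run (not Adamts5 and Mmp7), and of the other 17, 12 did. Signals raised to the floor give Adamts20 a log2 difference of -2.58 in place of -7.46, and log2 of the signal plus 32 gives Mmp13 3.43 in place of 5.70. No paired analysis was possible because each genotype has 1 array, and no replicate could be left out. Genes near the floor are limited by signal over background.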
